A study of Mus musculus with 2 samples.

Results

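Group 2 innate lymphoid cells (ILC2s) were examined in single-cell RNA-seq data of sorted live CD45+ cells from the colonic lamina propria (LP) of mice with dextran sulfate sodium (DSS) colitis. There was 1 library from WT mice and 1 from mice lacking Ring1a, a polycomb ubiquitin ligase (Ring1aKO), and each library pooled 5 mice. All mice were C57BL/6, were 8 to 10 weeks old by the labels and drank 2.5% DSS (w/v) for 7 to 8 days, so DSS treatment was common to both groups and no untreated library was compared here. A barcode was kept as a cell when it held at least 1000 unique molecular identifiers (UMIs, each counting 1 captured transcript) and 500 genes, with under 5% of UMIs from mitochondrial genes. The library labelled WT had 6005 kept cells, and that labelled Ring1aKO had 7918. An ILC2 member had at least 1 UMI of Gata3, at least 2 UMIs of Il17rb, Il13, Il5 and Calca together, and none of Cd3e, Foxp3, Cd4, Cpa3, Cd79a and Csf1r. This gave 250 members of the 13923 kept cells, 173 labelled WT and 77 labelled Ring1aKO.

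ILC2s are lymphocytes without antigen receptors that reside in mucosal tissue. They respond to the epithelial alarmins IL-25, IL-33 and TSLP, and to neuropeptides, by secreting the type 2 cytokines IL-5 and IL-13 along with amphiregulin. The transcription factor GATA3 is required for their development and binds the core GATA motif. In the gut they are known for goblet cell responses, eosinophil recruitment and repair of damaged epithelium.

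Ring1, the gene of Ring1a, did not separate the labels. It had 16 UMIs in members labelled WT, or 18.4 CPM (counts per 1000000 UMIs summed over the members), with an exact 95% Poisson interval of 10.5 to 29.9. In members labelled Ring1aKO it had 6 UMIs, or 15 CPM (5.50 to 32.6). All other kept cells had 13.3 CPM (812 UMIs) labelled WT and 11.8 CPM (810 UMIs) labelled Ring1aKO. The deleted part of the gene is not given in the sources used here, and a 3′ tag that lies outside it checks nothing, so groups are named here by their labels alone. Each group was 1 library of pooled mice. No difference between labels was therefore tested, every interval covers counting error only, and genotype cannot be told apart from library.

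Il13, Il5 and Il4 lie together on chromosome 11 in the type 2 cytokine locus, and all 3 were among the 15 genes with the highest level in members over other kept cells. The 250 bases before the start of each gene, as RefSeq gives them for GRCm38.p6, are shown to compare their GATA motifs, in capitals. The windows of Il13 and Il5 hold 1 each, and that of Il4 holds none. The motif AGATAA was searched on both strands, as were its variants ending in G, AGATAG, starting with T, TGATAA, and with both changes, TGATAG. A position on 1 strand can hold only 1 of these.
Il13, chr11:53634703-53634952, minus strand: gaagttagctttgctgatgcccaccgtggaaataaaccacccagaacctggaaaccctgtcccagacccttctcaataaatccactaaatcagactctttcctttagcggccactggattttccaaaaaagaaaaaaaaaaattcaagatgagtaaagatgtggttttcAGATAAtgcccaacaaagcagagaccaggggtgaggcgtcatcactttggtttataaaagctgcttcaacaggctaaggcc
Il5, chr11:53720544-53720793, plus strand: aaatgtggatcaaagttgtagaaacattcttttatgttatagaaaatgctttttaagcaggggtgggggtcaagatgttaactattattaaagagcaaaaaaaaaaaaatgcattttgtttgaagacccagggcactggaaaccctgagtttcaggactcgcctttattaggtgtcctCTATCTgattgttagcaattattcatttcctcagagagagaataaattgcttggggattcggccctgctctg
Il4, chr11:53618666-53618915, minus strand: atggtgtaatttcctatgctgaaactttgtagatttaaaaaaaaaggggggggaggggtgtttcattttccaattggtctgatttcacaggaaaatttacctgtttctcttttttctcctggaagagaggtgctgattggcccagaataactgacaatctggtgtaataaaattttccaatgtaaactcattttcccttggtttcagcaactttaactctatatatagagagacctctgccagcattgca

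Calca, Csf2 and Ccl1 also had 1 such motif each, whereas Gata3, Il17rb, Hlf and Stab2 had none in this window. A second promoter listed for Il4, which lies inside the gene, had 1. Of the 19 promoters listed for the 15 genes, 6 held a motif (31.6%), and of all 32851 RefSeq promoters 8718 did (26.5%). The rule read Gata3, Il17rb, Il13, Il5 and Calca, so the 15 genes are in part its own choice. Of these, Il13, Il5 and Calca are among those with a motif. The letters describe these windows and do not show binding.

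The markers of the label were high in members. The rule chose on Gata3, Il17rb, Il13, Il5 and Calca, so their high levels are a description of the choice. Gata3 stood at 1071 CPM in members labelled WT and 1247 CPM in those labelled Ring1aKO, against 32.8 and 28.6 CPM in other kept cells. Il17rb, the receptor subunit for IL-25, was at 740 and 500 CPM. Hlf, a transcription factor of hematopoietic cells that the rule did not read, was at 475 and 200 CPM in members and at 9.79 and 4.56 CPM in other kept cells, and was detected in 128 of 173 and 32 of 77 members. Hlf, the only one of the 6 markers that the rule did not read, was at least 5.47 log2 units higher in members than in other kept cells of either library. The gap was smaller to cells that met the Gata3 and sum thresholds but carried Cd3e. Hlf was at 218 and 58.6 CPM in these, and was detected in 63.0% and 36.1% of them.

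Other ILC2 genes outside the rule were present as well. Il1rl1, the IL-33 receptor, was detected in 82 of 173 and 48 of 77 members, at 382 and 547 CPM. Rora, a transcription factor needed for ILC2 development, was at 1530 and 1560 CPM. Klrg1, an inhibitory receptor of mature ILC2s, was at 181 and 187 CPM, and Areg, which encodes amphiregulin, was at 1485 and 1462 CPM. Comparator cells carried these genes too. In Foxp3 T cells Il1rl1 was at 350 and 135 CPM, Klrg1 at 167 and 105 CPM, Rora at 884 and 457 CPM and Areg at 737 and 478 CPM. Cells that met the Gata3 and sum thresholds but carried Cd3e, with or without the other genes set to 0, had Areg at 820 and 1033 CPM. Of 15 further ILC2 markers only Ptgdr2, the prostaglandin D2 receptor CRTH2, was at 0 UMIs in both libraries, which allows up to 3.45 CPM labelled WT and 7.5 CPM labelled Ring1aKO when a count of 0 is taken to allow 3 counts, as for every such limit here. Nmur1, the neuromedin U receptor, was found in 19 members labelled WT and in 1 labelled Ring1aKO.

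**Figure D1:**
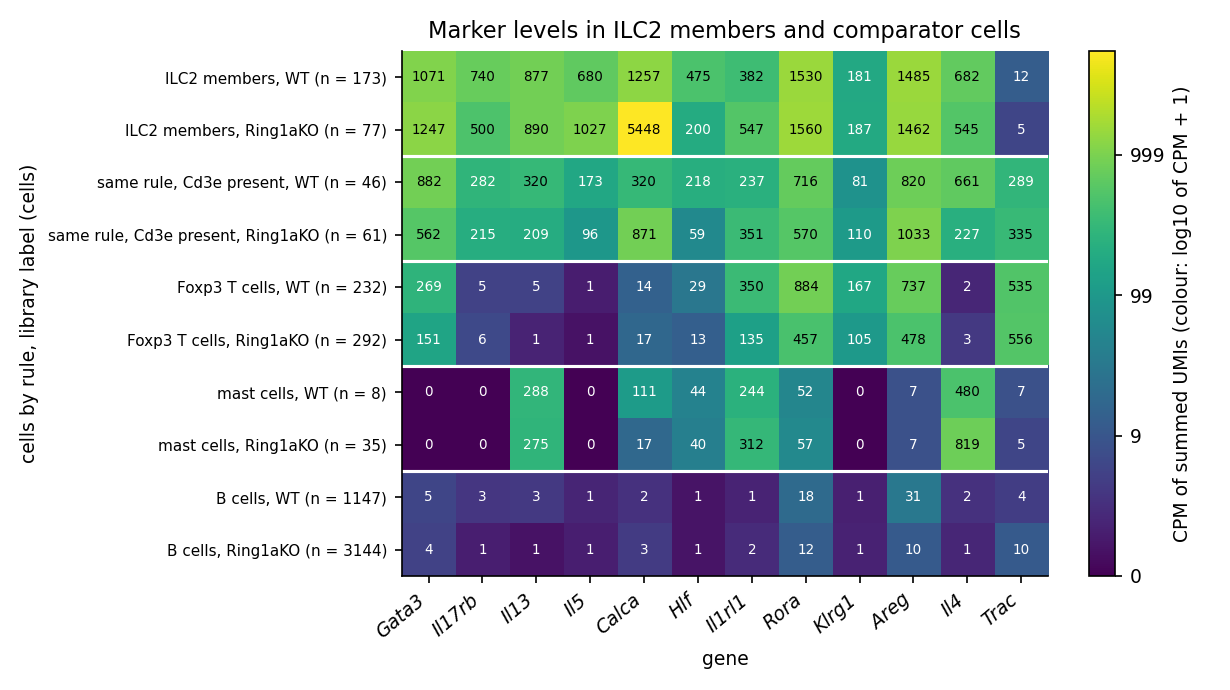
Levels of 12 genes (columns) in ILC2 members and 4 comparator classes in each library (rows, with cell numbers), printed as CPM of summed UMIs and coloured by log10 of CPM + 1. Members stood at 1071 and 1247 CPM of Gata3, against 269 and 151 CPM in Foxp3 T cells.

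Markers of other lineages differed in how far they were present in members. Of the 12 mast cell genes, Mcpt4, Cma1, Tpsb2, Tpsab1, Fcer1a, Ms4a2 and Gata2, none of them read by the rule, were at 0 UMIs in both libraries, as was Cpa3 by rule. The 4 detected were Kit, the most abundant, at 333 and 262 CPM, Hdc at 40.3 and 70.0 CPM, Mcpt1 at 1.15 and 17.5 CPM and Mcpt2 at 2.30 and 7.50 CPM. Of the 9 genes of basophils and eosinophils, Hdc was the highest, Prg2 had 1 UMI labelled WT and 0 labelled Ring1aKO, and the rest were at 0 in both libraries. The 13 myeloid genes summed to 192 and 165 CPM, with Lyz2 the highest labelled WT (85.2 CPM) and S100a9 the highest labelled Ring1aKO (45 CPM). Of the 10 genes of NK cells and ILC1s, 9 and 7 were detected, summing to 54.1 and 87.5 CPM, with Prf1 and Gzma the highest and Eomes at 0 in both.

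The 9 genes of B and plasma cells summed to 5582 and 6181 CPM in members. Igkc, an immunoglobulin light chain and the most abundant of them, was found in all 173 and 77 members, at 2641 and 2957 CPM, above Gata3. Igha, the IgA heavy chain, was at 2430 and 2619 CPM. Barcodes under 100 UMIs, taken as cell-free, had Igkc at 101772 and 96213 CPM. Ms4a1, which encodes CD20 of B cells, had 3 UMIs labelled WT and 1 labelled Ring1aKO, and Cd79a was at 0 by rule. Of 9 ILC3 genes, 8 and 6 were detected, summing to 2534 and 1165 CPM with Il17a the highest, and Il23r was at 0 in both libraries. The part of these transcripts in the results below was not tested.

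T cell genes were not uniformly absent. Trac, the constant chain of the αβ T cell receptor, was at 11.5 and 5.00 CPM. It was at 289 and 335 CPM in cells that met the Gata3 and sum thresholds but carried Cd3e. Trbc1 stood nevertheless at 626 and 500 CPM and Trbc2 at 392 and 410 CPM in members, although reads of these near-identical constant genes may be shared. In the same cells with Cd3e, Trbc2 was at 635 and 470 CPM, so it separated them from members less than Trac did. Cd3g was found in 37 of 173 and 13 of 77 members. Of the 14 T cell genes, 11 and 9 were detected, summing to 1168 and 1020 CPM, while Cd3e, Cd4 and Foxp3 were at 0 by rule. Beyond the subtraction of cell-free RNA, the part of these transcripts in the results below was not tested.

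Of the 839 kept cells labelled WT and 781 labelled Ring1aKO with a Gata3 UMI, 254 and 161 reached 2 UMIs over the 4 summed genes. Among those with the 6 other genes at 0, 68 and 73 cells had a sum of 0. Just inside the threshold, with a sum of 2, lay 18 members labelled WT and 9 labelled Ring1aKO, with Gata3 at 844 and 517 CPM and Il1rl1 at 584 and 197 CPM. Just outside, with a sum of 1, lay 12 and 14 cells, with Gata3 at 643 and 474 CPM and Il1rl1 at 89.7 and 103 CPM. The 6 genes required at 0 removed 81 of 254 cells labelled WT (31.9%) and 84 of 161 labelled Ring1aKO (52.2%), of which 20 and 19 held only 1 UMI of 1 such gene. Cd3e was present in 46 and 61 of the removed cells, Cd4 in 44 and 36, and Cd79a in 22 and 34. No doublet caller was run, and 11 barcodes were kept in both libraries, none of them a member in both.

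Members differed among themselves in the cytokines they carried. All 4 summed genes were found together in 36 members labelled WT and 11 labelled Ring1aKO, while 40 and 31 members had neither Il13 nor Il5. Il13, which drives goblet cell mucus and smooth muscle responses, ranged from 0 to 75 UMIs per member labelled WT with a median of 1, and from 0 to 60 with a median of 0 labelled Ring1aKO. Il5, the eosinophil growth factor, reached 51 and 89 UMIs in single members. Of members with Il13, 56 of 110 labelled WT and 18 of 36 labelled Ring1aKO also had Il5 (50.9% and 50%), and of those without it 23 of 63 and 10 of 41 did (36.5% and 24.4%). Il13 and Il5 both count towards the rule and depth was not equalised, so these shares describe the chosen cells and test no link between the genes.

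Il4, a type 2 cytokine not read by the rule, was detected in 121 of 173 and 46 of 77 members, at 682 and 545 CPM. It was found in 78.2% and 72.2% of members with Il13 and in 55.6% and 48.8% of those without. Csf2, which encodes GM-CSF, was at 875 and 730 CPM but in only 59 and 22 members. Ccl1, a ligand of CCR8, was detected in 28 and 15 members, and the 5 highest held 58.2% and 88.9% of its UMIs. Il9 and Il21 were at 0 UMIs in both libraries. Cell cycle genes were sparse, with Mki67 in 11 members labelled WT and 3 labelled Ring1aKO and Cdk1 at 0 in both.

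To compare members with and without Il13 at equal depth, each was thinned to 2000 UMIs, which left out 2 members labelled WT. Il13 was then detected in 89 of 171 members labelled WT and 27 of 77 labelled Ring1aKO. The 4 genes summed by the rule and the 6 it set to 0 were not read here. Of 1297 other genes with at least 50 thinned UMIs, 7 were 2-fold or more higher with Il13 in both libraries and 4 were lower, and these few genes were selected by that split. Il17a was at 2090 CPM with Il13 and 604 CPM without it labelled WT, and at 1537 and 100 CPM labelled Ring1aKO. Ctla4, an inhibitory receptor, was at 202 and 67.1 CPM labelled WT and at 333 and 100 CPM labelled Ring1aKO. The others higher with Il13 were Cxcl1, Rab11fip1, Jpt1, Apaf1 and Tet2, and those lower were Cd3g, Il22, Samhd1 and Gm42031. Labelled WT, Il22 had 0 UMIs with Il13 and 1 without, and Gm42031 had 1 and 5, so their direction there rests on few UMIs. Cxcl1 had 27 UMIs with Il13 and 0 without labelled WT, and before thinning 1 member held 57 of its 62 UMIs there. Labelled Ring1aKO, Il22 had 1 and 48 UMIs, and nearly all of its UMIs before thinning came from 1 member. Il4 was higher with Il13 by 0.97 log2 units labelled WT and 1.70 labelled Ring1aKO, so it passed 2-fold in 1 library only.

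A part of the members carried the IL-17 cytokines Il17a or Il17f, which are known as products of ILC3s and Th17 cells. They numbered 68 of 173 labelled WT (39.3%, exact Clopper-Pearson 95% interval 32.0 to 47.0) and 10 of 77 labelled Ring1aKO (13%, 6.41 to 22.6). Il17a was detected in 32.4% and 13% of members, and in 24.6% and 13% after thinning to 2000 UMIs. B cells, which are not known as a main source of Il17a, held an Il17a UMI in 2.09% and 0.954% of cells. Cd3g was found in 17 of these 68 and 3 of these 10 members, and Trac in 1 and 1.

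Members with and without these 2 cytokines differed in other genes too. Labelled WT, those with Il17a or Il17f had Il17rb at 1041 CPM against 537 CPM in the rest, and Hlf at 621 against 378 CPM. They had less Csf2, at 134 against 1373 CPM, less Il1rl1, at 163 against 530 CPM, and less Areg, at 958 against 1839 CPM. Gata3 was at 972 and 1138 CPM, and median depth was 4921.5 and 4877 UMIs. Labelled Ring1aKO, Il17rb was again higher, at 979 against 417 CPM. Csf2 was found in 0 of the 10 members with Il17a or Il17f and in 22 of the other 67, too few cells to compare. There Il1rl1 was at 675 against 525 CPM and Il4 at 1046 against 458 CPM, opposite in direction to the library labelled WT, but from 10 cells alone. Il17rb and Il13 count towards the rule, which these splits share.

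**Figure D2:**
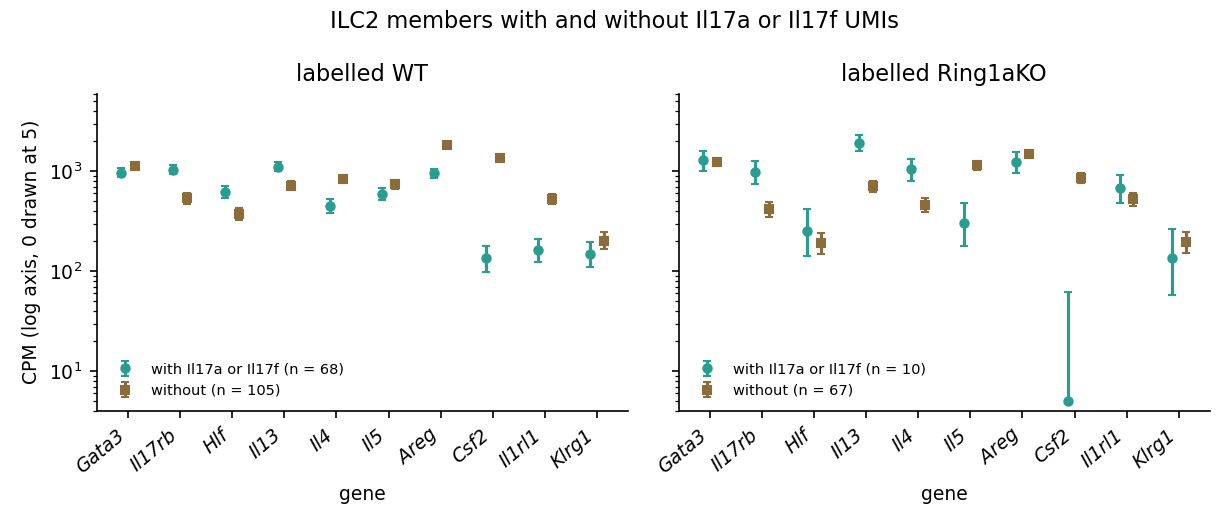
CPM of summed UMIs of 10 genes (log axis, 0 drawn at 5) in members with an Il17a or Il17f UMI (circles) and without (squares), for each library, with exact Poisson 95% intervals. Csf2 was at 134 against 1373 CPM labelled WT, and labelled Ring1aKO the members with these cytokines were 10 cells alone.

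ILC2 members made up a smaller share of kept cells in the library labelled Ring1aKO. They were 2.88% (2.47 to 3.34) of kept cells labelled WT and 0.972% (0.768 to 1.21) labelled Ring1aKO, a log2 ratio of -1.57 (-1.95 to -1.18). The intervals did not overlap. Before the 6 genes were required at 0, 254 of 6005 kept cells labelled WT and 161 of 7918 labelled Ring1aKO met the Gata3 and sum thresholds. That step removed 31.9% and 52.2% of these cells, so the share ratio depends on it. B cells, defined by Cd79a and Ms4a1 without Cd3e, were 19.1% and 39.7% of kept cells. Without B and plasma cells, members were 4.62% of 3747 cells and 2.72% of 2826 cells, and the log2 ratio was -0.76 (-1.14 to -0.38).

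Comparator classes did not all move in this way. Cells that met the Gata3 and sum thresholds but carried Cd3e were 46 of 6005 and 61 of 7918 kept cells, or 0.766% and 0.770%, a log2 ratio of 0.01 (-0.54 to 0.56). Of these, 13 and 17 failed the rule by Cd3e alone, and the rest also carried another gene it set to 0. Foxp3 T cells were 3.86% and 3.69% (-0.07, -0.31 to 0.18). Mast cells were 8 and 35 cells, a log2 ratio of 1.73 (0.62 to 2.84). Depth of the members was close, with a median of 4877 UMIs labelled WT and 4775 labelled Ring1aKO, while kept cells as a whole had medians of 6354 and 5035 UMIs.

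**Figure D3:**
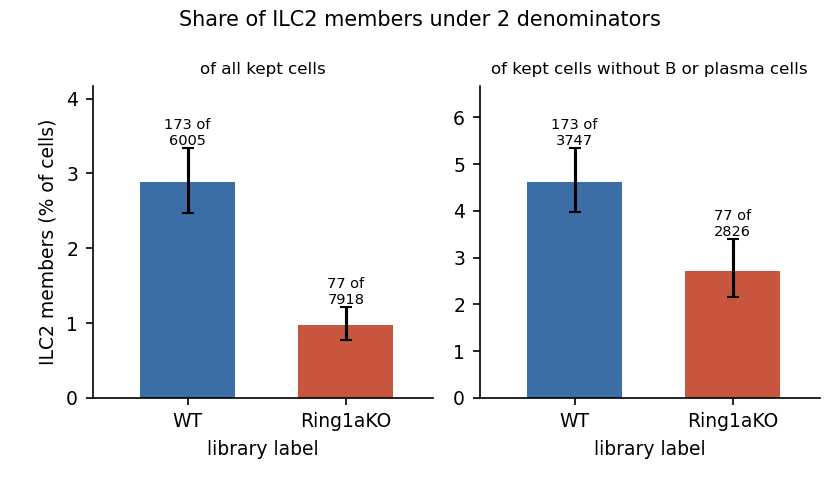
Share of ILC2 members (y axis, percent) in the library labelled WT and that labelled Ring1aKO under 2 denominators, with exact Clopper-Pearson 95% intervals and cell numbers. Shares were 2.88% and 0.972% of kept cells and 4.62% and 2.72% without B and plasma cells.

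To compare levels between the labels, UMIs of each gene were summed over the members of a library, giving 868892 UMIs labelled WT and 400122 labelled Ring1aKO. A gene was compared when both sums together reached 50 UMIs, and log2 ratios of Ring1aKO over WT had 1 UMI added to each sum. Of 3176 genes compared, 87 were 2-fold or more higher labelled Ring1aKO (2.74%) and 180 were 2-fold or more lower (5.67%), 267 in all (8.41%), with a median of -0.06. Scaling by the median of gene ratios gave 109 and 142 genes. Members and other kept cells came from the same libraries, so the ratio in other kept cells is given beside that in members for some genes. Of the 180 lower genes, 173 had the same sign in other kept cells, and 33 were past 2-fold lower there too. Of the 87 higher genes, 48 had the same sign there and 3 were past 2-fold higher. In 13 of these 87 genes 1 member held over 50% of the UMIs labelled Ring1aKO, as it did labelled WT in 2 of the lower genes.

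The type 2 cytokines showed no shared direction. Of 5 genes compared in the cytokine locus none passed 2-fold, beside 8.41% of all genes compared. Their median was -0.32, or 0.22 with cells thinned to 2000 UMIs before the rule. The locus list also holds genes that are not cytokines, such as Irf1. Il13 and Il5 count towards the rule, which partly sets their levels in members. Il13 stood at 877 CPM labelled WT and 890 CPM labelled Ring1aKO, a log2 ratio of 0.02 (-0.16 to 0.20). It was detected in 110 of 173 and 36 of 77 members. Il5 stood at 680 and 1027 CPM (0.60, 0.41 to 0.78), but the 5 highest members held 32.3% and 65.5% of its UMIs. Il4 had a ratio of -0.32 (-0.56 to -0.10), which was 0.05 under the same thinning, Csf2 of -0.26 (-0.46 to -0.06) and Areg of -0.02 (-0.17 to 0.12). Of 12 genes compared among type 2 and other cytokines, 3 were past 2-fold higher (Calca, Il22 and Tnfsf11) and 2 lower (Il17a and Lif). Over all genes compared 2.74% were higher and 5.67% lower. The ratio of Il22 was 5.85, and 0.80 without the highest member of each library. Lif, an IL-6 family cytokine, stood at 230 and 77.5 CPM.

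Calca, which encodes CGRP, a neuropeptide that ILC2s both make and sense, was the marker of the label with the highest ratio. Its level was 1257 CPM labelled WT and 5448 CPM labelled Ring1aKO, and the log2 ratio was 2.12 (2.01 to 2.22). It was detected in 101 of 173 and 55 of 77 members, with a median of 1 and 5 UMIs and a highest member of 139 and 424 UMIs. The 5 highest members held 35.3% and 61.0% of its UMIs. Members at 0 UMIs were present in both libraries, so the ranges overlapped. In other kept cells it was at 6.36 and 15.7 CPM, a ratio of 1.30. Reads of Calca and its near copy Calcb may be shared, and Calcb had 1 and 3 UMIs in members. The rule read Calca, and 4 members labelled WT and 6 labelled Ring1aKO were chosen through it alone. Of the neuropeptide list 3 genes were compared, Calca among them. Ramp3, part of the adrenomedullin and amylin receptors, was at 529 and 887 CPM (0.75). Ret, a neurotrophic factor receptor, had 25 UMIs in each library, or 28.8 and 62.5 CPM, which is just at the minimum for a comparison.

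Il17a and Il17f were lower labelled Ring1aKO. Il17a stood at 1643 CPM labelled WT and 520 CPM labelled Ring1aKO, a log2 ratio of -1.65 (-1.88 to -1.45), and Il17f at 723 and 45 CPM, a ratio of -3.93 (-4.77 to -3.33). Few members carried most of these UMIs, since the 5 highest held 50.6% and 78.8% of Il17a. In other kept cells the ratios were -0.88 and -1.42. The single highest member of each library left out, the ratios were -1.79 and -4.51.

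Stab2, a scavenger receptor known from sinusoidal endothelium, had the lowest ratio of the named genes. It was detected in 57 of 173 members labelled WT and in 2 of 77 labelled Ring1aKO, at 174 and 5.00 CPM, a log2 ratio of -4.54 (-8.18 to -3.24). After thinning it was detected in 17% and 1.30% of members. B cells held it in 0.523% of cells labelled WT and in 0 of 3144 labelled Ring1aKO, which allows up to 0.0954%. Outside the members Stab2 was at 1.28 and 0.248 CPM, so the direction was shared at far lower levels. Pecam1, the most abundant gene of the epithelial and stromal list in members, was at 65.6 and 42.5 CPM, and Cdh5 of endothelium was at 0 in both libraries.

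Among the transcription factors, Gata3 and Rora had ratios of 0.22 (0.06 to 0.38) and 0.03 (-0.11 to 0.17). Of 14 compared, 1 was past 2-fold higher and 2 were lower, beside 2.74% and 5.67% of all genes compared. Batf, an AP-1 family factor, stood at 96.7 and 195 CPM (1.01), and its ratio was 0.97 without the highest member of each library. Maf, which is linked to IL-10 and IL-4 expression in lymphocytes, stood at 359 and 162 CPM (-1.13), and Hlf at 475 and 200 CPM (-1.23, -1.61 to -0.90). Hlf was detected in 48.5% and 28.6% of members after thinning, and its ratio in other kept cells was -1.10. Id2, which is shared by all innate lymphoid cells, had a ratio of 0.76 (0.63 to 0.90).

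Receptors for alarmins and of the IL-1 family stayed within 2-fold, as did most genes compared. All 6 compared had ratios under 2-fold either way, with a median of 0.13, while 8.41% of all genes compared were past 2-fold. Il17rb, which counts towards the rule, had a ratio of -0.56 (-0.80 to -0.33). Il1rl1 had a ratio of 0.52 (0.27 to 0.77) and Crlf2, the TSLP receptor subunit, of 0.96 (0.43 to 1.48). The interval of Crlf2 reached past 2-fold. Among 12 costimulatory and checkpoint genes 2 were past 2-fold higher and none lower, beside 2.74% and 5.67% of all genes compared. The 2 were Tnfrsf18, which encodes GITR, at 123 and 312 CPM (1.34, 0.96 to 1.73), and Tnfrsf9, which encodes 4-1BB, at 81.7 and 225 CPM (1.46, 1.00 to 1.93). Of 9 cytokine receptors compared only Il10ra was past 2-fold, at 46.0 and 105 CPM, beside 8.41% of all genes compared. Il2ra had a ratio of 0.69 and Il7r of 0.26. None of the 11 other ILC2 markers compared passed 2-fold, which is near the 8.41% of all genes, and their median was 0.03.

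Enzymes of lipid and arginine metabolism leaned higher labelled Ring1aKO. Of 5 compared, 2 were past 2-fold higher and none lower, beside 2.74% and 5.67% of all genes compared. Their median was 0.91, beside -0.06 for all genes. Odc1, the first enzyme of polyamine synthesis, stood at 588 and 1222 CPM (1.06, 0.87 to 1.24), and Dgat2, which makes triglycerides, at 26.5 and 99.97 CPM (1.89, 1.14 to 2.72). Dgat1, another enzyme of triglyceride synthesis, stood at 292 and 547 CPM (0.91). In other kept cells the ratios of Odc1, Dgat2 and Dgat1 were -0.06, -0.60 and 0.03.

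Interferon response genes leaned lower labelled Ring1aKO. Of 9 compared, none was past 2-fold higher and 4 were lower, with a median of -0.86. Over all genes compared 2.74% were higher and 5.67% lower, with a median of -0.06. The 4 lower genes were the guanylate-binding proteins Gbp4, at 175 and 55 CPM (-1.62, -2.39 to -1.02), and Gbp2, at 54.1 and 20 CPM (-1.30), with Isg15 and Zbp1. Isg15, a ubiquitin-like modifier, had a ratio of -1.17 and Zbp1, a nucleic acid sensor, of -1.11. The same genes were lower in other kept cells, with ratios of -1.78 for Gbp4, -3.38 for Gbp2, -2.25 for Isg15 and -1.12 for Zbp1.

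Immediate-early and stress genes, which cell dissociation can induce, were within 2-fold for 21 of 22 genes compared, with a median of 0.26. Most other genes were too, since 8.41% of all genes compared were past 2-fold. Dnajb1, a heat shock cochaperone, was past 2-fold at 138 and 287 CPM, and its ratio was 0.50 without the highest member of each library. Of 8 polycomb subunits compared, Phc3 was past 2-fold lower at 86.3 and 40.0 CPM, beside 5.67% of all genes compared. The median of the 8 was -0.13.

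Several of the highest ratios rested on 1 member. Cd74, H2-Aa, H2-Ab1 and H2-Eb1, which present antigen on MHC class II, were at 236, 73.7, 92.1 and 86.3 CPM labelled WT and at 2017, 867, 955 and 757 CPM labelled Ring1aKO. A single member labelled Ring1aKO held 729 of the 807 Cd74 UMIs and 310 of the 347 H2-Aa UMIs there. It was the deepest member of its library, with 22382 UMIs, and held 5 Gata3 UMIs. Without the highest member of each library the ratios were -0.053 for Cd74, 0.69 for H2-Aa, 0.49 for H2-Ab1 and 0.50 for H2-Eb1. Likewise 155 of the 158 Il22 UMIs labelled Ring1aKO came from 1 member. For Il1b and Lyz2, both known from myeloid cells, 1 member labelled WT held 132 of 205 and 40 of 74 UMIs, with 1 Gata3 UMI. Their ratios were -2.25 and -2.53, and -0.92 and -1.69 without the highest member of each library.

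Other genes with large ratios were spread over more members. Ctla2a, a cathepsin inhibitor, was detected in 85 of 173 and 57 of 77 members, at 433 and 2949 CPM, a log2 ratio of 2.77 (2.60 to 2.94) against 0.64 in other kept cells. Pard3, a polarity protein, stood at 38.0 and 192 CPM (2.32, 1.74 to 2.98) and Rnf128, a ubiquitin ligase of lymphocytes, at 71.4 and 217 CPM (1.60, 1.12 to 2.10). Gm42031 and Gm43305 had ratios of 4.83 and 2.55 in members and of 3.16 and 2.42 in other kept cells. Among the lower genes, Rcbtb2 stood at 117 and 15 CPM (-2.76, -4.45 to -1.80) and Ptpn13, a tyrosine phosphatase, at 462 and 182 CPM (-1.32, -1.72 to -0.98). Lars2, Cyld, AI504432, Macf1 and Vps13a had ratios of -2.13, -2.04, -2.00, -1.94 and -1.90, and of -1.10, -0.76, -1.15, -0.78 and -0.70 in other kept cells. With cells thinned to 2000 UMIs before the rule, Vps13a fell under 2-fold, to -0.78, and Lars2 was at -1.50.

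**Figure D4:**
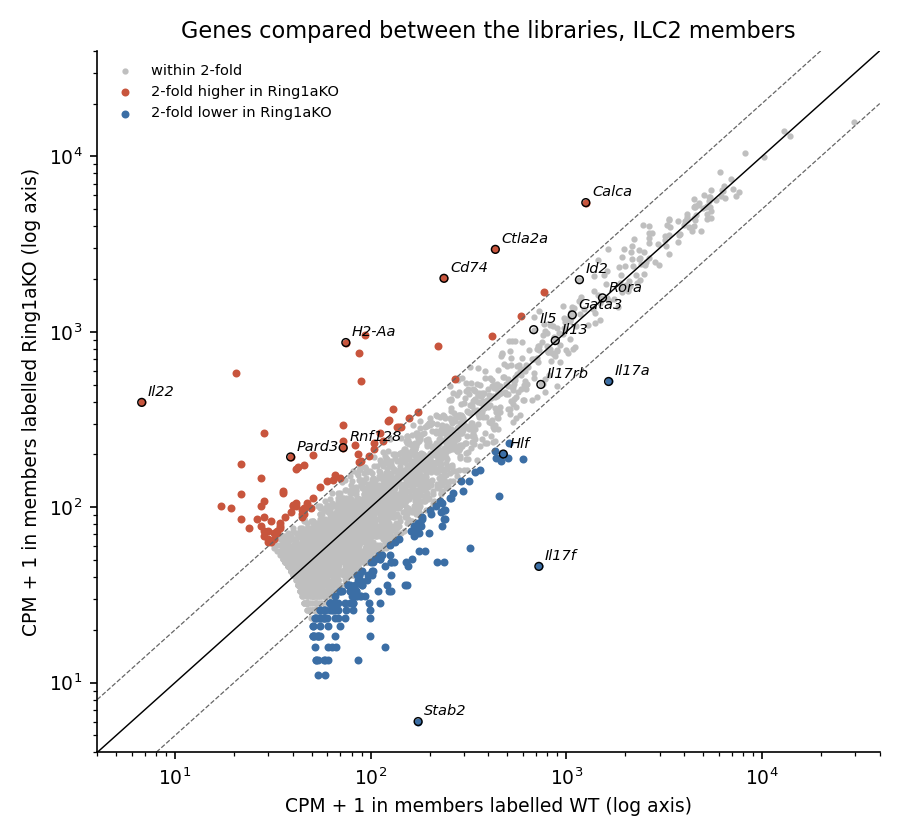
Each of 3176 genes by its CPM + 1 in members labelled WT (x axis) and labelled Ring1aKO (y axis), both log axes. The solid line marks equal levels and dashed lines 2-fold, with 87 genes 2-fold higher and 180 lower labelled Ring1aKO, and Stab2 and Il17f far below the line.

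**Figure D5:**
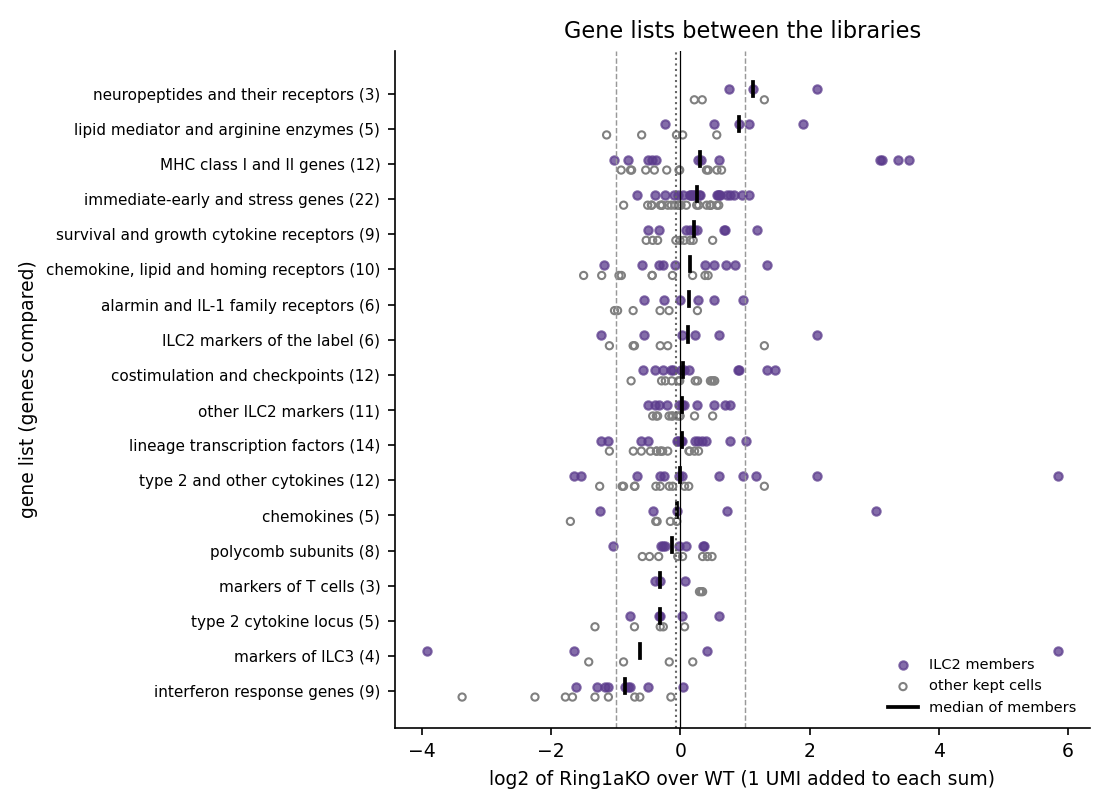
Log2 ratio of Ring1aKO over WT (x axis, 1 UMI added to each sum) for each compared gene of the 18 lists with at least 3 genes compared (rows, with gene numbers) in ILC2 members (filled) and other kept cells (open). Black bars are list medians in members, dashed lines 2-fold and the dotted line the median of all genes (-0.06), and of the lists drawn the interferon response list lay lowest at -0.86.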

How the data were processed

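The authors sequenced 1 library of 10x Genomics 3′ RNA per group and deposited unfiltered matrices of raw UMI counts per gene and barcode, with no normalization. Their processing notes name Cell Ranger 6.0.2, Seurat and mm39, the matrix header names Cell Ranger 4, and the study's methods name another version and build, so no coordinates were read from the counts. The libraries held 74414511 and 81862096 UMIs.

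Cells and members were called as described above, and counts of members were summed per library. The members, the filter and the 25 gene lists were chosen with earlier results of these data known. Genes of immunoglobulin and T cell receptor variable regions and the 6 genes set to 0 were left out. Genes were named by list, by the 15 highest ratios over other kept cells (at least 100 UMIs), by the 10 largest ratios each way between labels (100 UMIs and 100 CPM), and by the Il13 split. Values of some listed genes, and 1 comparator class and denominator, are not reported here. Klf5 was named after its values were seen. Barcodes under 100 UMIs gave the cell-free profile that 1 alternative subtracted, scaled by Igha. There were no replicates within a label, so no test was run. Ratios were checked on simulated counts. Alternatives were other cell filters, rule thresholds, thinning, denominators, scalings, added UMIs and gene filters, with each gene's highest cell left out as a choice made after seeing the data. Python 3.11.15, numpy 2.4.6, scipy 1.17.1 and pandas 2.3.3 were used.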

Additional observations from a re-analysis of the deposited data

Results flagged for a closer look

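Barcodes that met the gene rule with at least 1000 UMIs but were not kept as cells numbered 11 labelled WT and 8 labelled Ring1aKO. They lie outside the comparisons above, and all of them were at or over the mitochondrial limit of 5%.

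In 2 genes the difference between the labels was past 2-fold in members and past 2-fold the opposite way in other kept cells, and the difference of these differences was not tested. Ccr2, a chemokine receptor of monocytes and some lymphocytes, stood at 39.1 and 99.97 CPM in members, a log2 ratio of 1.35 (0.66 to 2.06), and at 152 and 53.7 CPM in other kept cells, a ratio of -1.50. Only 11 of 173 and 14 of 77 members carried it. Klf5, a transcription factor best known from epithelium, had 26 and 25 UMIs in members, a ratio of 1.06 (0.21 to 1.91), and a ratio of -1.01 in other kept cells. Whether other cell types in the comparison set account for either was not tested.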

How the results depend on the processing

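No paired analysis was possible because each group had 1 library. The share ratio of -1.57 kept its direction in the 9 alternatives run and moved beyond its counting interval with another denominator, to -0.76 without B and plasma cells. With up to 1 UMI of each excluded gene allowed it was -1.32, from 197 and 104 members. No alternative dropped the excluded genes altogether, although they removed 31.9% of candidate cells labelled WT and 52.2% labelled Ring1aKO. The counts of 87 higher and 180 lower genes were 36 and 50 with cells thinned to 2000 UMIs before the rule, which changed depth, members and genes compared at once. They were 241 and 474 with a filter of 20 UMIs, 44 and 79 with a filter of 100 UMIs, and 1765 and 1110 with no filter. Adding 5 UMIs in place of 1 gave 92 lower genes, and without the highest cell of each gene 62 were higher and 249 lower.

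A value past 2-fold was called reversed when its sign changed. Of the named genes Cd74 reversed, to -0.13 without the deepest 5% of members and to -0.053 without its highest cell, and Il1b reversed to 0.52 when cells were thinned before the rule, and the cause was not tested. The list of myeloid markers, with Lyz2 alone compared, reversed to 0.40 with a filter of 20 UMIs and to the same value with none, since more genes were then compared. Calca ranged from 1.73 to 2.29, Il17a from -1.85 to -1.29, Stab2 from -5.04 to -2.94 and the interferon list median from -1.12 to -0.65. Over all named genes and alternatives 486 values stayed within their counting interval, 70 left it without such a reversal and 3 reversed, and 353 list medians moved by at most 0.5, 19 by more and 2 reversed. Ratios under 2-fold also changed sign, in 15 values of 8 named genes and 30 medians of 12 lists. Among them Il4 went from -0.32 to 0.05 and the median of the type 2 cytokine locus from -0.32 to 0.22 when cells were thinned before the rule, and 1700061F12Rik went from -0.47 to 0.20 with up to 1 UMI of each excluded gene allowed. The 77 members labelled Ring1aKO held 400122 UMIs and the 173 labelled WT 868892, at a similar median depth, so counting intervals rest on fewer UMIs labelled Ring1aKO.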
